A study of Mus musculus with 4 samples.

Results

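Heat shock proteins, chaperonins and immunophilins were followed in peritoneal cells of mice with and without the transcription factor C/EBPε. Members were taken by gene name, with no measured value in the rule. They were all probe sets annotated with exactly 1 gene symbol that began with Hsp, Dnaj or Fkbp, or that was Tcp1 or a Cct subunit, and 3 probe sets of the proteoglycan gene Hspg2 were left out. This gave 66 probe sets of 50 genes, of 6137 named genes in all. The families were Hsp90 with 1 gene, Hsp70 with 10, small heat shock proteins with 3, mitochondrial chaperones with 3, Dnaj with 17, the chaperonin with 9 and Fkbp with 7.

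The cells came from wild-type mice and from mice deficient for C/EBPε, a factor of late myeloid maturation, both of a mixed 129/SvEv x NIH Black Swiss background and 6 to 8 weeks old. Per the labels, 4 mice of each genotype were injected with 2 ml of 4% thioglycollate broth and lavaged after 24 h, and cell smears of both genotypes held about 30% monocytes, 60% neutrophils and 7 to 10% lymphocytes. Each genotype was read on 1 Affymetrix array of type A and 1 of type B, which carry different probe sets, so every difference below lacks a replicate check and no test was possible. The study sought candidate target genes of C/EBPε, and one of the deficient arrays (type B) is named deficient only in its title. Whether a value stands for 1 mouse or for RNA pooled from several was not stated in the sources used here.

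Molecular chaperones bind unfolded proteins and help them reach or keep their folded form. Hsp70 proteins work with Dnaj co-chaperones that deliver substrates and stimulate their ATPase, and Hsp90 takes over partly folded kinases and steroid receptors. The chaperonin TRiC, built from Tcp1 and the Cct subunits, encloses actin and tubulin while they fold, and Hspd1 with its lid Hspe1 does the like in mitochondria. Fkbp immunophilins are prolyl isomerases that bind the drugs FK506 and rapamycin, and some serve Hsp90. Under stress, the factor HSF1 drives many of these genes through heat shock elements, which are inverted repeats of GAA and TTC. In phagocytes the same proteins serve heavy protein synthesis and secretion.

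Heat shock elements are shown first, because the genes with lower signal in deficient cells included classical heat shock genes. The 150 bases before the RefSeq transcription start (build GRCm38.p6) are printed for the genes that were at least 2-fold lower and had an entry in the promoter table, which Hsp90aa1 had not. Capitals mark heat shock elements, searched as GAANNTTC or TTCNNGAA, and CCAAT boxes, searched as CCAAT on both strands.

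Hspe1, chr1:55087998-55088147, plus strand: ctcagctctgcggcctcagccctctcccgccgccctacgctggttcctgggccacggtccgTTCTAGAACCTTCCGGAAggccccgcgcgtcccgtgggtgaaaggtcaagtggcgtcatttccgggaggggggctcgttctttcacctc
Hspb1, chr5:135887769-135887918, plus strand: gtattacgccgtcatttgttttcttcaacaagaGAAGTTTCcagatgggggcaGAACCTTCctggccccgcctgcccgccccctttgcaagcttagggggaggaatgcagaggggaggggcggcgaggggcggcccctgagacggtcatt
Hsph1, chr5:149636337-149636486, minus strand: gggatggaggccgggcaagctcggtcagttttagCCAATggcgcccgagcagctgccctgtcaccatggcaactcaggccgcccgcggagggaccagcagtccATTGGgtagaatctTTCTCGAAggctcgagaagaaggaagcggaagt
Cct3, chr3:88296985-88297134, plus strand: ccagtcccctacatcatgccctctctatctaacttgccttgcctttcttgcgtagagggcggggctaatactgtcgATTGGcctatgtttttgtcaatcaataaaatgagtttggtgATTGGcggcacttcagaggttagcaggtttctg
Cct6a, chr5:129787206-129787355, plus strand: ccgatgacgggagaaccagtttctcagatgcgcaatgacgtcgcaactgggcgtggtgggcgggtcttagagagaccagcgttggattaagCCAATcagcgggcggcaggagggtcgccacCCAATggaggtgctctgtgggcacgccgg

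Hspe1 carried 3 overlapping heat shock elements, starting 89, 84 and 79 bases before the start. Hspb1 carried 2, at 117 and 97 bases, and Hsph1 carried 1, at 33 bases, with CCAAT boxes at 116 and 47. The chaperonin genes Cct3 and Cct6a had none in these windows, and each had 2 CCAAT boxes. Hspd1 and Hspe1 lie head to head with no gene between them in RefSeq, and the window before the start of Hspd1 shares 215 bases with that of Hspe1, so both read the same 3 elements. Of the 50 genes, 43 had an entry, with 53 windows of 250 bases. A heat shock element was found in 13 of the 53 windows (24.5%), against 12.8% of 32851 windows of all genes, and a CCAAT box in 24 (45.3%), against 33.8%. Windows of 1 gene can overlap and read the same element. Counted by gene, 11 of 43 had a heat shock element (25.6%), against 14.55% of 27025 genes, and 21 a CCAAT box (48.8%), against 37.49%. These matches describe letters only.

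The files hold 1 whole-number intensity per probe set on a linear scale, many of them below 0. A probe set was given a log2 ratio, deficient over wild-type, where both arrays of its type read above a signal floor, the median of the pair (1036.5 on A, 690.17 on B). Intensities are printed as deposited, and ratios were taken after scaling by factors of 0.999 to 1.001. Several probe sets of 1 gene gave ratios with a pooled SD of 0.38 (424 genes), or 0.45 for genes below 3 times the floor and 0.35 above. This SD measures the spread between probe sets and holds no spread between mice. The ratio of 3′ to 5′ probe sets, a sign of RNA integrity, was 0.82 to 0.89 for actin and 0.76 to 0.84 for Gapdh on the 4 arrays. No probe set named for Cebpe alone was analysed here, so the genotype was not checked through the targeted gene. In exudate cells, less RNA per cell and fewer cells of a type cannot be told apart.

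Of the 50 genes, 38 were above the floor in both genotypes and 12 in neither. Signal was lower in deficient cells for 30 of the 38, with a median log2 ratio of -0.34. Over all 3132 genes with a ratio the median was 0.01 and 49.0% were below 0. Of the 38 genes, 6 were at least 2-fold lower, where 3.64% of all genes were, and 0 were at least 2-fold higher, where 3.0% were. At 1.5-fold the counts were 14 lower and 1 higher, against 11.4% and 11.6% of all genes. Ratios of the 28 members at least 3 times the floor had the same median, -0.34, with 3 of them at least 2-fold lower, while 3.6% of all genes that bright were. Of the 10 dimmer measured members, 5 were below 0 and 5 above (median -0.26), and 3 were at least 2-fold lower. Over all 1189 dimmer genes with a ratio, 48.4% were below 0 and 44 were at least 2-fold lower. Scaling the arrays to the bacterial hybridisation controls shifted the median of all genes to 0.24 and that of the members to -0.03, a distance of -0.27. Counted by the probe set read for each gene, it left 1 gene at least 2-fold lower, Cct6a. Signs below are those of the trimmed-mean scaling. Under bacterial-control scaling 10 measured genes turned from below to above 0, namely Cct2, Cct4, Cct7, Dnaja1, Dnajb11, Dnajc13, Fkbp1a, Fkbp2, Hspa8 and Hspb8, none of which was over 1.5-fold lower.

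**Figure D1:**
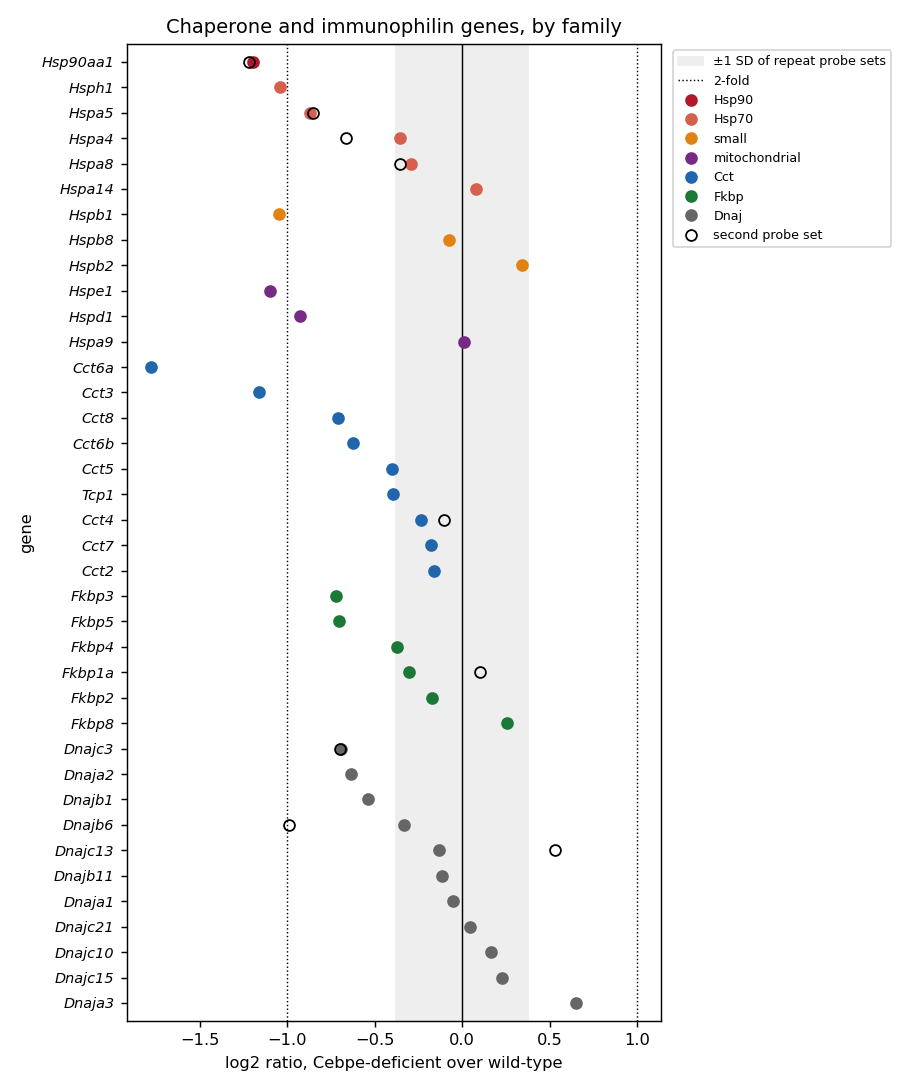
Log2 ratio of deficient over wild-type cells (x axis) for the 38 genes above the floor in both genotypes (y axis, grouped and coloured by family). Filled points are the probe set read for the gene, open circles another measured one, the grey band is 1 SD of repeat probe sets (0.38) on either side of 0 and dotted lines mark 2-fold. Points reach from -1.78 for Cct6a to 0.65 for Dnaja3, and all 9 chaperonin genes lie left of 0.

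Hsp90aa1 encodes the stress-inducible cytosolic Hsp90 (NCBI gene 15519). It read 17571 in wild-type cells and 7562 in deficient ones on A, and 14038 and 6145 on B. Both array types thus gave the lower signal in deficient cells, by 2.32-fold on A and 2.29-fold on B (log2 ratios -1.22 and -1.19). Under bacterial-control scaling the ratio on B, the type on which the gene was read, was -0.84. The ratio on A was not taken under that scaling, which multiplies each array by 1 factor. Hsph1, also read on A, moved from -1.04 to -0.84 under it. The ratio of Hsp90aa1 on A, -1.22 before, would move by as much. The probe set on B is of a kind shared within a gene family, so a related Hsp90 transcript could add to it. The constitutive gene Hsp90ab1 was not analysed here.

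In the Hsp70 family 4 of 5 measured genes were below 0, with a median of -0.36. Hsph1, an Hsp110 that exchanges the nucleotide of Hsp70, read 4469 in wild-type cells and 2170 in deficient ones, 2.06-fold lower (-1.04). Hspa5, the Hsp70 of the endoplasmic reticulum also known as BiP, read 19686 and 10914 on A and 25117 and 13772 on B. Its 2 ratios, -0.85 and -0.87, were alike on both array types and short of 2-fold. The ratio on B was -1.04 when the arrays were scaled to equal medians.

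The constitutive cytosolic gene Hspa8 read 41805 in wild-type cells and 32708 in deficient ones on A, and 50186 and 41038 on B. Its log2 ratios of -0.35 and -0.29 were within 1 SD of repeat probe sets, and the ratio turned to 0.06 under bacterial-control scaling. Hspa4, another Hsp110-like exchange factor, had ratios of -0.36 and -0.66 by its 2 probe sets. Hspa14, an Hsp70 that works at the ribosome, read 1624 and 1714 (0.08).

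The heat-inducible Hspa1a was near 0, reading 13 in wild-type and -438 in deficient cells. Hspa1l, Hspa2, Hspa4l and the exchange factor gene Hspbp1 were also below the floor in both genotypes. The lower signal of the family was therefore read from Hsph1, Hspa5, Hspa4 and Hspa8.

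Among small heat shock proteins, which hold unfolding proteins without ATP, the 3 genes differed. Hspb1, encoding Hsp25 and known for its link to actin, read 3294 in wild-type cells and 1593 in deficient ones, 2.07-fold lower (-1.05). It was near the floor in deficient cells, at 1.54 times it, and its ratio was -0.85 under bacterial-control scaling. Hspb8, a partner of Bag3 in autophagy, read 3941 and 3742 (-0.08), a ratio that turned to 0.13 under bacterial-control scaling. Hspb2 read 2630 and 3333, with a ratio of 0.34. Both of these lay within 1 SD of repeat probe sets.

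The mitochondrial chaperonin genes were lower together. Hspd1, which encodes Hsp60, read 21963 in wild-type cells and 11577 in deficient ones, 1.90-fold lower (-0.93), on type B. Its lid Hspe1, or Hsp10, read 3647 and 1706, 2.14-fold lower (-1.10), on type A. Hspe1 was near the floor in deficient cells, at 1.65 times it, and its ratio was -0.89 under bacterial-control scaling. The pair, which share the upstream stretch printed above, were therefore lower on separate arrays. Hspa9, the Hsp70 of the mitochondrial matrix, read 2413 and 2432 (0.01), so its signal was nearly equal in both genotypes, and the sign turned with loess.

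**Figure D2:**
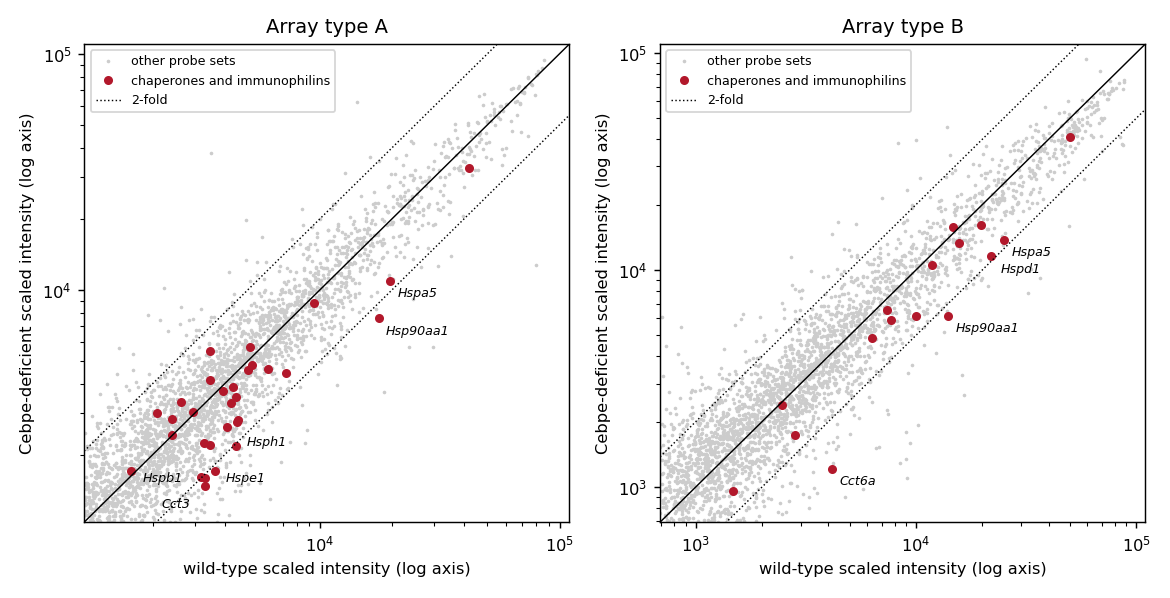
Scaled intensity in wild-type (x axis) against deficient cells (y axis), both log axes, for probe sets above the floor in both genotypes, on array type A (left) and B (right). Grey points are other probe sets, red points chaperones and immunophilins, the solid line is equality and dotted lines 2-fold; Hsp90aa1 lies past the lower 2-fold line on both types.

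All 9 genes of the TRiC chaperonin list were above the floor, and each was lower in deficient cells (median -0.40, range -1.78 to -0.16). The ratios differed among the genes, but the 2 lowest, Cct6a and Cct3, were near the floor in deficient cells, at 1.76 and 1.42 times it. These are RNA ratios and say nothing of the subunit proteins. Cct6a encodes the zeta subunit and stood at the low end, reading 4161 in wild-type and 1218 in deficient cells, 3.42-fold lower (-1.78). Cct3, the gamma subunit, read 3298 and 1476, 2.24-fold lower (-1.16). A second probe set of Cct3, at 1047 and 495, was just above the floor in wild-type cells and below it in deficient ones, and gives no more than a bound.

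The theta subunit gene Cct8 read 10023 in wild-type cells and 6136 in deficient ones (-0.71), and Cct6b, a variant zeta gene known from testis, read 1472 and 958 (-0.62). Cct5 read 7728 and 5876 (-0.40), and Tcp1, the alpha subunit, read 6048 and 4608 (-0.39). These 4 were 1.31-fold to 1.64-fold lower.

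The remaining subunits differed by less than 1 SD of repeat probe sets. Cct4 read 9431 and 8782 on A (-0.10) and 15651 and 13335 on B (-0.23). Cct7 read 7348 and 6522 (-0.17), and Cct2 read 11772 and 10546 (-0.16). Under bacterial-control scaling Cct2, Cct4 and Cct7 were above 0, at 0.19, 0.12 and 0.18, and the family median was -0.19. The median of all genes was then 0.24.

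Of the Fkbp genes, 5 of 6 measured ones were below 0 (median -0.34). None reached 2-fold, where 3.64% of all genes were at least 2-fold lower and 3.0% higher. Fkbp5, the Hsp90-bound immunophilin FKBP51 that glucocorticoids induce, read 7241 in wild-type cells and 4448 in deficient ones, 1.63-fold lower (-0.70). Fkbp3, the nuclear FKBP25, read 4519 and 2746, 1.65-fold lower (-0.72). Fkbp4, or FKBP52, another partner of Hsp90, read 6282 and 4866 (-0.37).

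Fkbp1a, which encodes FKBP12, the main receptor of FK506, had 2 probe sets of opposite sign. One read 19826 in wild-type cells and 16117 in deficient ones (-0.30) and the other 14722 and 15823 (0.10). Fkbp2 of the endoplasmic reticulum read 4350 and 3861 (-0.17). Fkbp8, or FKBP38, of the mitochondrial surface, read 3458 and 4131 and was the one measured gene of the family above 0 (0.26). Fkbp9 was below the floor in both genotypes.

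Dnaj co-chaperones had genes on both sides of 0. Of 11 measured genes, 7 were below 0 and 4 above (median -0.11). None reached 2-fold, where 3.64% of all genes were at least 2-fold lower and 3.0% higher. The 4 above 0 were all read on type A, as most Dnaj genes were, while most chaperonin genes were read on B. Of all members read on A, 16 of 24 were below 0, and of those read on B, 14 of 14. Family and array type can therefore not be fully told apart. The members' medians were -0.25 on A and -0.38 on B, while those of all genes read on each were 0.02 and -0.05. Dnajc3, an inhibitor of the kinase PERK that also assists Hspa5, read 4549 in wild-type cells and 2817 in deficient ones on A and 2830 and 1749 on B. Its 2 ratios, -0.69 and -0.70, were alike. Dnaja2, a partner of Hspa8, read 4075 and 2628 (-0.63).

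Dnajb1, the heat-inducible Hsp40, read 3266 and 2254 (-0.54), whereas its second probe set, at 744 and 1107, was above the floor in deficient cells alone. Dnajb6, which suppresses aggregation, had ratios of -0.33 and -0.99 by 2 probe sets, the second from readings of 3180 and 1603. Dnajc13, an endosomal protein, had probe sets of opposite sign, at -0.13 and 0.53, and their mean was above 0.

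Dnaja3, also called Tid1 and located in mitochondria, was the highest member, reading 3482 in wild-type and 5480 in deficient cells, 1.57-fold higher (0.65). Dnajc15, of the mitochondrial import motor, read 2411 and 2823 (0.23), and Dnajc10, a reductase of the endoplasmic reticulum, read 5113 and 5730 (0.16). Dnajb11 read 5192 and 4800 (-0.11), Dnaja1 read 2469 and 2385 (-0.05) and Dnajc21 read 2944 and 3045 (0.05). All but Dnaja3 lay within 1 SD of repeat probe sets. Dnajb3, Dnajb9, Dnajc1, Dnajc2, Dnajc11 and Dnajc17 were below the floor in both genotypes.

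Several of these results could be set against a second probe set. Of the 15 genes with several, 9 had 2 measured ones, and in 7 of these both ratios had the same sign. The 5 genes present on both array types, Hsp90aa1, Hspa5, Dnajc3, Hspa8 and Cct4, gave ratios that differed by 0.005 to 0.13 between types. These are repeat measurements of the same genotype comparison and not of further animals, and whether A and B shared an RNA preparation was not stated. For Hspa5 and for Hspa8, the probe sets on A and B were annotated to the same sequence entry and are of the kind shared within a gene family. Their ratios may thus be alike because they read the same target, which was not tested.

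**Figure D3:**
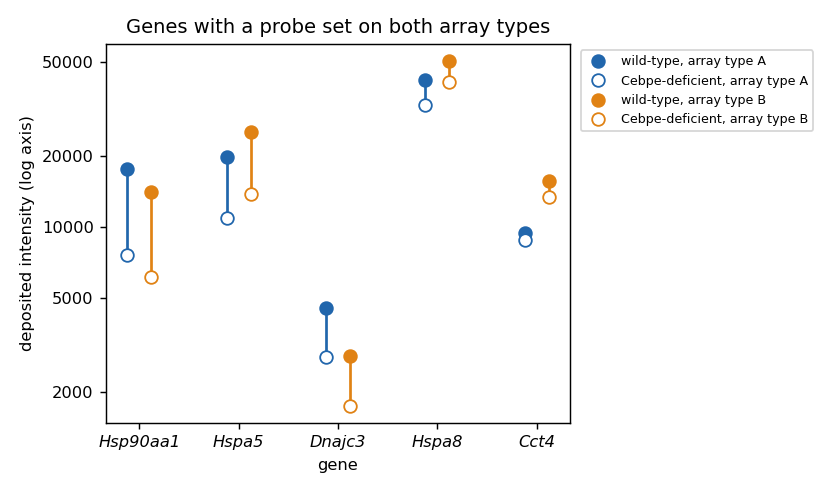
Deposited intensity (y axis, log axis) of the 5 genes with a probe set on both array types (x axis), type A in blue and type B in orange. Filled points are wild-type and open points deficient cells, and in each of the 10 pairs the open point lies below the filled one.

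Members were also grouped by their place in the cell. Of 5 measured genes of the endoplasmic reticulum, 4 were below 0 (median -0.17), with Hspa5 and Dnajc3 at the low end and Dnajc10 above 0. Of 5 measured mitochondrial genes, 2 were below 0 and 3 above (median 0.01), with Hspe1 and Hspd1 at one end and Dnaja3 at the other. Of the remaining 28 genes, mostly cytosolic or nuclear but with Fkbp8 and Dnajc13 among them, 24 were below 0 (median -0.36). This grouping was made after the values were seen.

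Genes with and without a heat shock element in the 250 bases before the start had similar medians. The 10 measured genes with one had a median of -0.38, with 3 of them at least 2-fold lower, and the 23 without had a median of -0.36, with 2 at least 2-fold lower. Over all genes 3.64% were at least 2-fold lower. Hsp90aa1 and Hspa8 are in neither set, as they had no promoter entry, and Hspd1 and Hspe1 count as 2 genes for 1 shared stretch. The heat-inducible Dnajb1 had no match and is in the second set. The split therefore cannot separate heat-inducible genes from others, and no conclusion is drawn from it. The lowest member, Cct6a, was in the second set.

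Genes that work with these proteins did not all share the lower signal. In the list of co-chaperones and heat shock factors, 4 of 10 measured genes were below 0 (median 0.17). No heat shock factor was among the 10, as Hsf2 was below the floor in both genotypes and Hsf1 was not analysed here. Bag3, the stress-induced partner of Hsp70 and Hspb8, read 3274 in wild-type cells and 1243 in deficient ones (-1.40). Stip1, or Hop, which links Hsp70 to Hsp90, read 4689 and 2141 (-1.13). In contrast Cdc37, which brings kinases to Hsp90, read 4869 and 7814 (0.68), and Hsbp1, which binds HSF1, read 5448 and 8068 (0.57). The segregase gene Vcp read 12444 and 9925 (-0.33), and its other measured probe sets gave -0.77 and 0.08. Cdc37 was chosen for naming after its value was seen.

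Of 15 measured genes of folding and stress in the endoplasmic reticulum, 12 were below 0 (median -0.16). Creld2 read 5077 in wild-type cells and 1813 in deficient ones (-1.49), and the disulfide isomerase gene Pdia4 read 3812 and 1906, a 2-fold difference. The lectin chaperone gene Calr stood at -0.29 and P4hb, another disulfide isomerase, at -0.57. No gene of this list was at least 2-fold higher, where 3.0% of all genes were, a share at which so short a list may hold none. The median of the list was 0.06 under bacterial-control scaling, where that of all genes was 0.24.

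Of 4 measured cyclophilins and other prolyl isomerases, which like Fkbp proteins turn proline bonds, 4 were below 0 (median -0.39), and 2 under bacterial-control scaling (median -0.16). Ppil2 read 2987 in wild-type cells and 1372 in deficient ones (-1.12), while Ppib stood at -0.54 and Ppia, the receptor of cyclosporin, at -0.25. Of 8 measured genes of mitochondrial import and proteostasis, 6 were below 0 (median -0.20), with Phb2 at -0.37 and Timm44, which tethers the import motor, at 0.47 on B and -0.11 by a dimmer probe set on A. The median of the import list was 0.0015 under bacterial-control scaling, where that of all genes was 0.24.

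The prefoldin and tubulin cofactor list, which feeds or follows TRiC, had 1 of 4 measured genes below 0 (median 0.19), with Tbca at -0.81 and Tbcb at 0.13. Of 4 measured targets and partners of immunophilins and Hsp90, 2 were below 0 (median 0.08), with the calcineurin gene Ppp3cb at 0.52 on B and -0.09 by a dimmer probe set on A, and the kinase gene Akt1 at -0.01. The glucocorticoid receptor gene Nr3c1 was below the floor in both genotypes. None of these 8 genes reached 2-fold, where 3.64% of all genes were at least 2-fold lower and 3.0% higher.

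**Figure D4:**
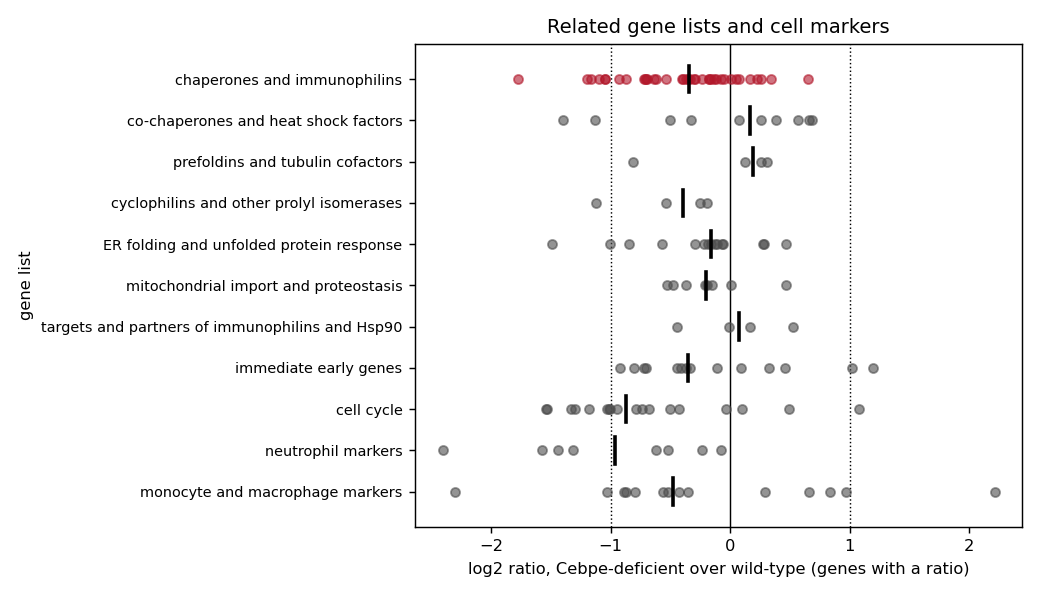
Log2 ratio of deficient over wild-type cells (x axis) for genes above the floor in both genotypes, by gene list (y axis). Each point is a gene, the black bar is the list's median and dotted lines mark 2-fold; the chaperones and immunophilins (red) have a median of -0.34, the cell cycle list -0.87 and the co-chaperones 0.17.

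Other lists also differed in the same samples, and their part in the chaperone values was not tested. Of 18 measured cell cycle genes, 15 were below 0 (median -0.87), and 8 were at least 2-fold lower, where 3.64% of all genes were. These 8 were Ccne1, Mki67, Mcm6, Mcm7, Cdk1, Pcna, Ccna2 and Ccnd1, while Cdk2 was higher at 1.08 and Ccnd3 stood at 0.50. Of 14 measured immediate early genes, 9 were below 0 (median -0.35), with Jund at -0.41, and Klf2 and Nr4a1 were higher at 1.02 and 1.20. Fosl2 and Egr2 were above the floor in wild-type cells alone.

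All 8 measured neutrophil markers were below 0 (median -0.97), from Il1r2 at -2.40, Ngp, Ly6g and Csf3r to Lcn2 at -0.52 and S100a8 at -0.08, and Mxd1 and Cxcr2 were above the floor in wild-type cells alone. Their summed intensity was 208836 in wild-type and 147466 in deficient cells over 12 genes. This sum and those below count readings under 0 as 0 and include readings below the floor, from both array types. Of 14 measured monocyte and macrophage markers, 9 were below 0 (median -0.47), with Mrc1 at -2.30, Cd14 at -1.03, Mpeg1 at 0.66 and Apoe at 2.21, and their sums over 15 genes were 462347 and 434486. The labelled cell types were thus represented in both genotypes, although the secondary granule marker Camp was below the floor in both.

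Markers of other cells gave sums of 66856 and 68599 for 8 B cell genes, with Ighm at -0.50, Cd79a at -0.37 and Cd37 at 1.15. For 9 T and NK cell genes they were 7691 and 5503, with Gzma at -0.66, Cd3e above the floor in wild-type cells alone, Cd2 in deficient cells alone and Cd3d, Cd3g, Cd4 and Cd8a below it in both. The 9 eosinophil and mast cell genes summed to 11171 and 10313, with Ccr3 at -1.92 and Tpsb2 at -0.14, and Cpa3 was above the floor in deficient cells alone while Epx and Prg2 were below the floor. The 6 erythroid genes summed to 109515 and 73583, with Hbb-b2 at -1.62, Hba-a1 at 0.04 or -0.46 by its 2 probe sets and Alas2 above the floor in wild-type cells alone. The 13 mesothelial and fibroblast genes summed to 20512 and 10490, with Col3a1 at -1.70, Sparc at -1.51 and Dcn at -0.57, and Msln and Krt19 were below the floor in both. Below the floor in both genotypes were 6 of the 9 T and NK cell genes and 4 of the 9 eosinophil and mast cell genes. So were 7 of the 13 mesothelial and fibroblast genes.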

How the data were processed

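Total RNA of peritoneal cells was read on 4 one-colour arrays, and samples were grouped by their titles. The deposited values are intensities, 1 whole number per probe set, 20.6% to 29.3% of them below 0. For the software and scaling behind them, the sources used here name none. Names came from the platform annotation: of 13069 probe sets without controls, 7542 had 1 symbol, 224 several and 5303 none. By gene ID, all 50 member genes matched the RefSeq table of GRCm38.p6. A probe set annotated to Dnajc19 and its pseudogene was left out as it had several symbols.

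Both arrays of a type were brought to 1 mean, taken over probe sets other than controls after trimming 2% at each end. The floor was the median of both scaled arrays. A gene was read by its measured probe set with the highest signal over the floor. Where 1 array alone was above the floor, the ratio against the floor was a bound, reported without a fold. Most member probe sets (55 of 66) carry a suffix that marks probes shared between transcripts or selected under relaxed rules, so near-identical paralogs and pseudogenes could add signal. No test was run, since a genotype has 1 array of each type, and this number limits the precision.

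The name rule for the members, the gene lists and the comparisons were chosen with earlier results of these data known. Named members were those 1.5-fold or more apart, all of the Hsp90, small and mitochondrial families, and each family's extremes, and other members are given for completeness. From other lists, genes at 2-fold or more and the 2 brightest are named, and a few at the floor or of defining role were added after seeing values. Alternatives were 5 other scalings, floors at the 30th and 70th percentiles, 1.5-fold and 3-fold, 1 array type, probe sets as units, means over probe sets and no suffixed probe sets. The procedure was tested on simulated data. Medians of the other lists under the scalings were added after seeing the data. Tables were handled with pandas 2.3.3 and numpy 2.4.6 in Python 3.11.15, loess came from statsmodels 0.14.6 and the plots from matplotlib 3.10.9.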

Additional observations from a re-analysis of the deposited data

How the results depend on the processing

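The members' median stayed below 0 under each of the 12 alternatives that recomputed it, from -0.44 with equal medians to -0.03 under bacterial-control scaling. The 6 genes at least 2-fold lower became 1 under bacterial-control scaling (Cct6a), 1 with the floor at the 70th percentile (Hsp90aa1), 2 on type B alone, 0 without suffixed probe sets, where 3 genes were measured, and 14 at 1.5-fold and 1 at 3-fold. Under the higher floor, Cct6a had a bound of -1.03, and Hsph1, Hspe1, Hspb1 and Cct3 had bounds short of 2-fold. With equal medians the count was also 6, but the genes changed. Hspa5 (-1.04) and Hspd1 (-1.10) took the place of Hspb1 (-0.99) and Hsph1 (-0.98). At 1.5-fold 1 gene was higher. The share of measured genes below 0, 78.9%, became 52.6% under bacterial-control scaling and 100% on type B alone. Bacterial-control scaling also moved the median of all genes, from 0.01 to 0.24. Below that all-gene median were 30 of the 38 members under either scaling. On type B alone the median of all genes was -0.04. Family medians turned above 0 under bacterial-control scaling for Dnaj (0.0897), Fkbp (0.0052) and small heat shock proteins (0.13), each below the 0.24 of all genes. The last also did so with the floor at the 70th percentile (0.13), and Fkbp without suffixed probe sets (0.26, from Fkbp8 alone). No replicate could be left out, as there is 1 array per genotype and type. No paired analysis was possible because each genotype has 1 array of a type. The causes were not tested.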
